A study of Mus musculus with 4 samples.

Results

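The 41 genes described here are those of DNA replication, of mitosis and of the linker histones, out of 32285 features in the deposited matrices. They are a list of named genes, drawn up with earlier results of these data known: 13 genes of S phase, 18 genes of G2 and mitosis, Top2a and Mki67, which called a barcode cycling, 3 genes of chromatin and tubulin, and 5 linker histones. All 41 had counts in each of the 4 libraries. A barcode, which stands for a droplet and is taken as a cell, was called cycling when Top2a and Mki67 together had at least 2 UMIs, a UMI being a tagged and once-counted mRNA molecule. This call found 753 of the 16557 barcodes that were kept (4.55%).

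The libraries came from colon cells at steady state that had been enriched for CD11b, an integrin chain of monocytes, macrophages and many dendritic cells, by positive selection. The groups were Csf2-/- SILT, wild-type SILT, Csf2-/- lamina propria and wild-type lamina propria, with 1 library each. SILT are the solitary isolated lymphoid tissues of the colon, small B cell-rich structures, and the lamina propria is the connective tissue under the epithelium. Csf2 encodes the growth factor GM-CSF. Mice of all groups, the Csf2+/+ controls included, also carried the alleles CX3CR1-GFP/+ and CCR2-RFP/+, and the labels gave no treatment and no age. The design text names 5 mice, without saying if a library pooled several of them.

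A dividing cell copies its DNA in S phase and separates the copies in mitosis, and each step has its own set of genes. Genes of S phase make nucleotides, load the MCM helicase and synthesise DNA, and E2F factors switch on many of them. Genes of G2 and mitosis come on later and encode cyclins, kinases, kinetochore and spindle proteins, and many carry a CHR element, bound by the DREAM and MuvB complexes, near their start. Most linker histone mRNAs are made in S phase and end in a stem-loop in place of a poly(A) tail, whereas the library kit captured poly-A RNA per the labels. In the gut, dendritic cell precursors and some macrophages divide within the tissue, and crypt epithelium and germinal centre B cells divide fast.

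After filtering, the libraries held 2378 barcodes from Csf2-/- SILT, 7714 from wild-type SILT, 1974 from Csf2-/- lamina propria and 4491 from wild-type lamina propria. Median depth was 7204, 5886, 8950 and 9956 UMIs per barcode in that order. Csf2 had 0 UMIs in Csf2-/- SILT and 24 in wild-type SILT, and 0 in the Csf2-/- lamina propria and 2 in that of wild-type mice, so its level checked the SILT labels better than those of the lamina propria. Itgam, which encodes CD11b, had a UMI in 44.5% of Csf2-/- SILT barcodes, 26.8% of wild-type SILT barcodes, 48.0% of Csf2-/- lamina propria barcodes and 44.6% of wild-type lamina propria barcodes. Clusters with the markers of endothelial, pericyte, fibroblast, B, plasma and epithelial cells stood beside the myeloid ones, although the labels give CD11b+ cells. Xist (266 to 826 CPM) and the Y-linked Ddx3y (28.0 to 58.5 CPM) both had counts in every library. Any 2 libraries shared 2 to 14 barcodes. With 1 library per group there was no test and no replicate check of any difference. Intervals are 95% exact intervals and cover counting error only. The limit given for a count of 0 is not such an interval but 3 counts over the number of barcodes. CPM is a gene's UMIs over all UMIs of the barcodes summed, scaled to a total of 1000000.

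Which cells were cycling was asked first. Cycling barcodes were 78 of 2378 in Csf2-/- SILT (3.28%, interval 2.60 to 4.08) and 406 of 7714 in wild-type SILT (5.26%, 4.78 to 5.79). They were 64 of 1974 in Csf2-/- lamina propria (3.24%, 2.51 to 4.12) and 205 of 4491 in wild-type lamina propria (4.56%, 3.97 to 5.22). Both Csf2-/- shares lay below the wild-type share of the same tissue. Cycling barcodes were deep, with medians of 17344 to 18730 UMIs by library, against 5625 to 9604 UMIs in the other barcodes, and 10 of the 753 were called doublets. When every barcode was thinned to 2000 UMIs and shallower ones were left out (392, 1563, 182 and 615 barcodes in the library order above), the shares were 1.06%, 2.02%, 1.12% and 1.68%. The order of the genotypes within each tissue was the same after thinning. It was not the same in SILT when cycling was called from at least 3 UMIs of the 31 S and G2/M genes, with shares of 29.7% in Csf2-/- SILT and 28.1% in wild-type SILT, and of 37.9% in the Csf2-/- lamina propria and 42.0% in that of wild-type mice.

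A cluster of 188 barcodes, found with 190 listed cell cycle genes left out, was led by such genes all the same, and 184 of its barcodes were cycling. Cell cycle genes outside that list, such as Neil3 and Depdc1a, had not been left out. It was placed barcode by barcode on the named classes by its other genes. The placing put 82 of its barcodes with the cDC2-like class, 42 with cDC1-like, 37 with macrophage-like, 14 with migratory DC-like and 9 with monocyte-like barcodes, 2 with B cell-like and 2 with endothelial-like ones. Of its 188 barcodes, 137 had at least 2 UMIs of C1qa, C1qb and C1qc, complement genes of macrophages, 120 had as many of the cDC2 genes Cd209a, Clec10a and Mgl2, and 41 of Xcr1 and Clec9a. A count of 2 C1q UMIs did not set macrophages apart, since 454 of 1108 cDC2-like and 103 of 201 cDC1-like barcodes outside this cluster had it too. The summed C1q level did, at 10202 CPM in the 37 barcodes placed as macrophage-like, 219 CPM in the 82 placed as cDC2-like and 122 CPM in the 42 placed as cDC1-like, against 13651, 318 and 163 CPM in the same classes outside the cluster. A count of 2 UMIs of the cDC2 genes did not set cDC2-like barcodes apart either. Outside the cluster, 1658 of 2929 macrophage-like and 636 of 2118 monocyte-like barcodes had it too. Their summed level was 1650 CPM in the 82 barcodes placed as cDC2-like, 497 CPM in the 37 placed as macrophage-like and 762 CPM in the 9 placed as monocyte-like. Mpo, Elane and Prtn3, the granule genes of early neutrophil and monocyte progenitors, had 0 UMIs in the cluster. The same placing returned 71.8% of monocyte-like barcodes, 89.7% of cDC2-like barcodes and 86.8% to 99.8% of the other classes to their own class. The class means came from these same barcodes, which favours such a return by construction, so it does not measure the placing of cycling barcodes. Monocyte-like barcodes were returned least often, so their placing was the least sure. Only the cycling cluster was placed, and all other barcodes kept their class by cluster.

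With the cycling cluster placed on the classes, the cDC1-like and cDC2-like shares stood above those of macrophage- and monocyte-like barcodes of the same library at full depth. Of cDC1-like barcodes, which bear Xcr1 and Clec9a and present antigen to CD8 T cells, 16 of 55 were cycling in Csf2-/- SILT (29.1%), 37 of 117 in wild-type SILT (31.6%), 17 of 46 in Csf2-/- lamina propria (37.0%) and 13 of 25 in wild-type lamina propria (52.0%). Each cDC1-like share rested on at most 117 barcodes, and thinned to 2000 UMIs the shares were 9.09%, 12.9%, 17.4% and 29.2% in the same order. Of cDC2-like barcodes, which present antigen to CD4 T cells, 12 of 206 were cycling in Csf2-/- SILT (5.83%, 3.05 to 9.95) and 43 of 332 in wild-type SILT (12.95%, 9.53 to 17.1). In lamina propria they were 17 of 281 in Csf2-/- (6.05%, 3.56 to 9.51) and 70 of 371 in wild type (18.9%, 15.01 to 23.2). The intervals of the 2 genotypes overlapped slightly in SILT and did not overlap in lamina propria. Thinned to 2000 UMIs, the cDC2-like shares were 2.58% in Csf2-/- SILT and 6.05% in wild-type SILT, and 1.85% in the Csf2-/- lamina propria and 9.89% in that of wild-type mice. These shares rest on the placing. By cluster alone, cDC2-like barcodes were cycling in 2.51% of cases in Csf2-/- SILT and 5.56% in wild-type SILT, and in 3.65% in the Csf2-/- lamina propria and 8.81% in that of wild-type mice, and cDC1-like ones in 20.4% in Csf2-/- SILT and 15.96% in wild-type SILT, where the order of the genotypes turned. Top2a and Mki67 together were then at 29.3 CPM in cDC2-like cluster 4 of wild-type lamina propria and at 29.7 CPM in macrophage-like cluster 2 of the same library. Without the placing the level was thus no higher in the cDC2-like cluster than in that macrophage-like cluster. Over all macrophage-like clusters of that library, Mki67 was lower than in cDC2-like barcodes, as given below.

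Macrophage- and monocyte-like barcodes had the lower shares. Macrophage-like barcodes were cycling in 9 of 452 cases in Csf2-/- SILT (1.99%) and 48 of 1145 in wild-type SILT (4.19%), and in 10 of 323 in Csf2-/- lamina propria (3.10%) and 55 of 1046 in wild-type lamina propria (5.26%). Thinned, the macrophage-like shares were 0.249% in Csf2-/- SILT and 1.98% in wild-type SILT, and 1.03% in the Csf2-/- lamina propria and 1.14% in that of wild-type mice. The lamina propria difference was thus small at equal depth. Different clusters led the class, since 189 of 449 macrophage-like barcodes of Csf2-/- SILT were in cluster 8 and 465 of 1126 of wild-type SILT were in cluster 2. Monocyte-like barcodes were cycling in 8 of 594 in Csf2-/- SILT (1.35%), 11 of 621 in wild-type SILT (1.77%), 7 of 427 in Csf2-/- lamina propria (1.64%) and 25 of 485 in wild-type lamina propria (5.15%). The wild-type lamina propria stood highest among the monocyte-like groups at full depth, but not at equal depth. Thinned, 0 of 507 monocyte-like barcodes were cycling in Csf2-/- SILT, which allows up to 0.592%, and 6 of 574 in wild-type SILT (1.05%), and 0 of 410 in Csf2-/- lamina propria, which allows up to 0.732%, and 4 of 457 in wild-type lamina propria (0.875%).

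Over the myeloid classes together (macrophage-, monocyte-, cDC1-, cDC2-, migratory DC- and neutrophil-like), 48 of 1369 barcodes were cycling in Csf2-/- SILT (3.51%, 2.60 to 4.62) and 164 of 2351 in wild-type SILT (6.98%, 5.98 to 8.08). In lamina propria the counts were 54 of 1108 in Csf2-/- (4.87%, 3.68 to 6.31) and 165 of 1957 in wild type (8.43%, 7.24 to 9.75). Neither tissue showed overlap between the intervals of the genotypes. The makeup differed, with monocyte-like barcodes being 43.4% of the myeloid barcodes in Csf2-/- SILT and 26.4% in wild-type SILT, and 38.5% in the Csf2-/- lamina propria and 24.8% in that of wild-type mice. With every library given the same makeup, the shares were 3.63% in Csf2-/- SILT and 6.29% in wild-type SILT, and 5.05% in the Csf2-/- lamina propria and 9.41% in that of wild-type mice. The genotype order was unchanged by that weighting.

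**Figure D1:**
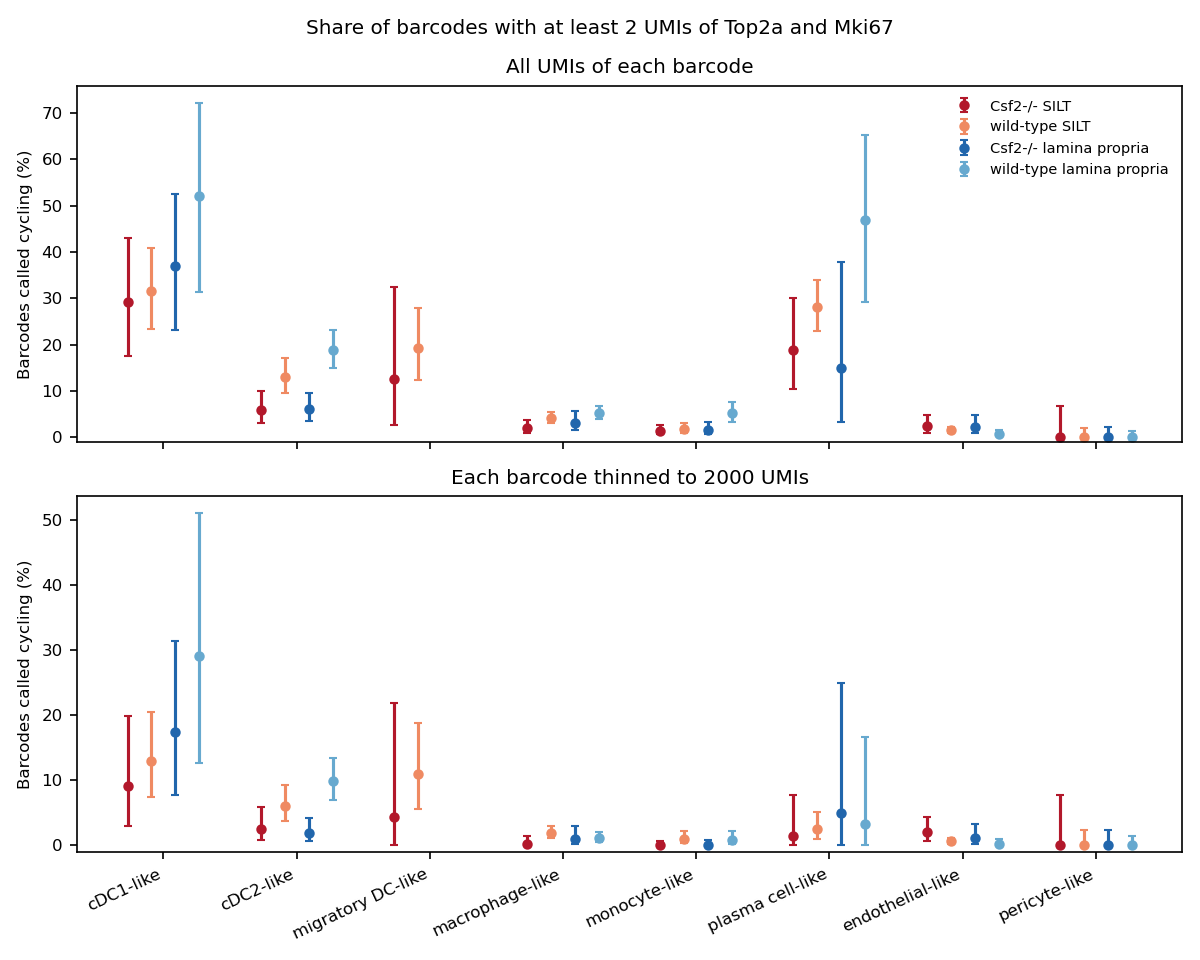
Share of barcodes called cycling (percent, vertical axis) by cell class and library, with the cycling cluster placed on the classes, at full depth (above) and thinned to 2000 UMIs (below); points are shares, bars are exact 95% binomial intervals for counting error, and groups under 20 barcodes are left out. At full depth the cDC1-like shares, 29.1% to 52.0%, stand above the macrophage-like shares, 1.99% to 5.26%.

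Cells outside the myeloid classes also cycled. Epithelial-like barcodes, nearly all from wild-type SILT, were cycling in 58 of 104 cases there (55.8%, thinned 13.5%), and they held 26.0% of all UMIs of the 18 G2/M genes and 18.2% of those of the 13 S genes in that library. Clusters 28 and 31, which made up this class, had median depths of 71287 and 34279 UMIs. The part of mixed droplets in the epithelial-like values was not tested. Plasma cell-like barcodes were cycling in 13 of 69 in Csf2-/- SILT (18.8%), 78 of 277 in wild-type SILT (28.2%), 3 of 20 in Csf2-/- lamina propria (15%) and 15 of 32 in wild-type lamina propria (46.9%). Their median depth was 30369 UMIs, and thinned the plasma cell-like shares were only 1.45% to 5.00%. Of 398 plasma cell-like barcodes, 349 also had at least 2 UMIs of C1qa, C1qb and C1qc (1381 CPM, against 318 CPM in cDC2-like ones). As many UMIs of Cd209a, Clec10a and Mgl2 were in 165 of them. The part of mixed droplets or free RNA in the plasma cell-like values was not tested. B cell-like barcodes were cycling in 0 of 102 in Csf2-/- SILT and in 11 of 589 in wild-type SILT. The 11 held 25 UMIs of germinal centre markers in 4 barcodes (199 CPM), against 110 UMIs in 86 of the 578 other B cell-like barcodes (48.8 CPM). Pericyte-like barcodes, cells of the vessel wall with a median of 5501 UMIs, had 0 cycling of 658, which allows a share of up to 0.456%, and so set the level of a class without a call.

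Endothelial-like barcodes, the lining of vessels, were the class in which the Csf2-/- share was the higher one in both tissues, with intervals that overlapped. They were cycling in 7 of 299 in Csf2-/- SILT (2.34%) and 23 of 1514 in wild-type SILT (1.52%), and in 6 of 268 in Csf2-/- lamina propria (2.24%) and 6 of 805 in wild-type lamina propria (0.745%). Thinned, the endothelial-like shares were 2.03% and 0.607% in the same SILT groups and 1.16% and 0.253% in those of the lamina propria. These are few barcodes, and a single one held up to 271 of the 811 G2/M UMIs of Csf2-/- SILT and up to 216 of the 578 of Csf2-/- lamina propria. Counted by cluster, cycling endothelial-like barcodes gathered in the cluster led by Apln, a gene of sprouting tip cells, where 6 of 18 barcodes were cycling in Csf2-/- SILT, 11 of 207 in wild-type SILT, 5 of 9 in Csf2-/- lamina propria and 2 of 9 in wild-type lamina propria. In the other endothelial-like clusters, 1 of 281, 11 of 1306, 0 of 258 and 4 of 796 barcodes were cycling in the same library order.

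The genes differed widely in how closely their counts followed the cycling call. Cycling barcodes held 12.3% of all UMIs. They held 95.1% of the UMIs of Bub1, a kinase of the spindle checkpoint, 94.2% of those of Ccna2, the cyclin A that drives S phase and entry to mitosis, and 91.7% of those of Pclaf, a partner of the sliding clamp. The clamp gene itself, Pcna, had only 21.6% of its UMIs there, and Mcm4, a helicase subunit, had 26.9%. Cenpa, the histone of the centromere, had 27.7% and H2afz, a histone variant, 25.4%. The linker histones spread over the whole range, with 85.9% for Hist1h1b, 76.5% for Hist1h1a, 51.4% for Hist1h1d, 30.7% for Hist1h1e and 17.6% for Hist1h1c.

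Cycling barcodes were next set against other barcodes of the same cluster and library, where at least 10 such others were present. That left 59 of 78 cycling barcodes in Csf2-/- SILT, 323 of 406 in wild-type SILT, 36 of 64 in Csf2-/- lamina propria and 140 of 205 in wild-type lamina propria, and it left out the cycling cluster. Over the libraries pooled, in which wild-type SILT weighs most, they had 56.0 times the level of Ccnb1 (cyclin B1, 183 UMIs against 3.27 at the other barcodes' level), with ratios of 42.2 to 1528 by library because the expected count was so small. The ratio of Cenpf, a kinetochore protein, was 46.0 (9.89 to 151 by library) and that of Ccnb2 was 36.1 (33.2 to 119). Pclaf was at 30.4 (18.7 to 32.6) and Rrm2, the regulated subunit of ribonucleotide reductase, at 20.6 (4.91 to 32.6, the lowest in wild-type lamina propria). The helicase genes stood lower, with pooled ratios of 2.54 (Mcm2) to 4.69 (Mcm5), and Pcna was at 2.01 (1.21 to 2.44 by library). Hist1h1c, at 1.11 (0.93 to 1.42 by library), had the lowest pooled ratio. Because Top2a and Mki67 made the call, their own ratios (44.2 and 32.7) are a description of the call. The genes outside the list with the highest pooled ratios were Neil3, a DNA glycosylase (91.8), Hist1h3c, a core histone (78.7), and Depdc1a (50.2), followed by Aspm, Ckap2 and Cdca3 of mitosis (35.1, 35.0 and 32.7). This order did not hold in each library. The ratios of Neil3 were 61.2 in Csf2-/- SILT and 169.9 in wild-type SILT, and 7.76 in the Csf2-/- lamina propria and 35.6 in that of wild-type mice, and those of Aspm were 105.6, 37.7, 59.8 and 11.3 in the same order.

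The promoters of S and G2/M genes differ in the letters they hold, and 4 are shown as examples: Ccnb2 and Cdc20 of mitosis, Mcm5 of S phase, and Hist1h1e, the linker histone that was lower in Csf2-/- cells of each class compared. They are RefSeq windows on GRCm38.p6, from 250 bases before to 50 bases after the start, written 5′ to 3′ on the gene's strand, with capitals marking matches to the CHR (TTTGAA or TTCGAA), to CCAAT, and to the E2F letters TTTGGCGC, TTTCCCGC, TTTGCCGC or TTTCGCGC, each searched on both strands. Ccnb2 lies at chr9:70421505-70421804 on the minus strand, Cdc20, the activator of the anaphase complex, at chr4:118437294-118437593 on the minus strand, Mcm5 at chr8:75109259-75109558 on the plus strand and Hist1h1e (RefSeq H1f4) at chr13:23622509-23622808 on the minus strand.
Ccnb2: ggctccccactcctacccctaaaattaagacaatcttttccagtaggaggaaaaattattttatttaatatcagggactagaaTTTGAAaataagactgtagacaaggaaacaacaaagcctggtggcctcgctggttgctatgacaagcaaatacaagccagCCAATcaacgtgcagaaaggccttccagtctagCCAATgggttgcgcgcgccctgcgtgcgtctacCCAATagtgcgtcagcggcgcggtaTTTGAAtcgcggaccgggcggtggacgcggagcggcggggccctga
Cdc20: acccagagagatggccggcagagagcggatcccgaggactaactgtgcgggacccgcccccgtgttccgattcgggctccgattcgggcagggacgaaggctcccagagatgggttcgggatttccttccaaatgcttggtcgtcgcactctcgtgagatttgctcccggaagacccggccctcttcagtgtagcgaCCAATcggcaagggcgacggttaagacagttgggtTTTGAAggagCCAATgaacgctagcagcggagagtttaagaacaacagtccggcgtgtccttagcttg
Mcm5: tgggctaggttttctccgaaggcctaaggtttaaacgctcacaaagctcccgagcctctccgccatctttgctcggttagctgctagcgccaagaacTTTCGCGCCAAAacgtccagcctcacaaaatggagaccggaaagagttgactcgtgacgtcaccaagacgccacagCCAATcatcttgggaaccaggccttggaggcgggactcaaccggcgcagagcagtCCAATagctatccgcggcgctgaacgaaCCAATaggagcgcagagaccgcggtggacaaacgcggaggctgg
Hist1h1e: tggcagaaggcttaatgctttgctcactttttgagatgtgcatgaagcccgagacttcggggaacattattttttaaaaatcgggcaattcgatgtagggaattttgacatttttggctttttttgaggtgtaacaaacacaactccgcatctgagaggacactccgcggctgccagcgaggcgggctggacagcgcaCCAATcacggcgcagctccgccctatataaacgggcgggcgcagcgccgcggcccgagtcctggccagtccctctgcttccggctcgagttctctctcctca
The Ccnb2 window holds 2 CHR matches and 3 CCAAT matches, that of Cdc20 1 CHR and 2 CCAAT matches, that of Mcm5 3 CCAAT matches and 2 E2F matches that overlap in 1 capital run, and that of Hist1h1e 1 CCAAT match.

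Windows were found for 35 of the 41 genes, and none was used for Ccne2, Mcm4, Ccna2, Tpx2, Aurkb and Stmn1. A gene counted as matched when any of its windows held the letters. A CHR match was found for 11 of 15 G2/M genes (73.3%), 2 of 11 S genes (18.2%) and 2 of 5 linker histones (40.0%), against 21.7% of all genes. An E2F match was found for 5 of 11 S genes (45.5%), 1 of 15 G2/M genes (6.67%) and 0 of 5 linker histones, against 2.60% of all genes. CCAAT was found for 13 of 15 G2/M genes (86.7%), 9 of 11 S genes (81.8%) and 5 of 5 linker histones, against 41.1% of all genes. A match is a description of the letters, not a binding site.

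S phase and mitosis were then weighed against each other in cycling barcodes, by the share of S genes in the UMIs of the 31 S and G2/M genes. The S share was 51.6% in Csf2-/- SILT (49.96 to 53.3) and 45.6% in wild-type SILT (44.9 to 46.3). In lamina propria it was 49.0% in Csf2-/- (47.4 to 50.6) and 40.8% in wild type (39.8 to 41.8). Cycling barcodes of both Csf2-/- libraries thus held relatively more S than G2/M UMIs than wild-type ones. In barcodes outside the call the S share was 78.6%, 78.1%, 78.0% and 82.7% in the library order Csf2-/- SILT, wild-type SILT, Csf2-/- lamina propria and wild-type lamina propria, as follows from S genes such as Pcna having most of their UMIs there.

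By class the difference was widest in cDC2-like barcodes. Their S share was 62.0% over 12 cycling barcodes of Csf2-/- SILT and 32.6% over 43 of wild-type SILT, and 70.2% over 17 of Csf2-/- lamina propria and 40.5% over 70 of wild-type lamina propria. Summed over all cDC2-like barcodes, the G2/M genes were at 179 CPM in Csf2-/- SILT and 540.3 CPM in wild-type SILT, and at 131 CPM in Csf2-/- lamina propria and 548 CPM in wild-type lamina propria. The S genes were at 348 CPM and 409 CPM in the same SILT groups, and at 326 CPM and 508 CPM in those of the lamina propria. With the cycling cluster placed, the genotypes of cDC2-like barcodes differed more in G2/M than in S genes. Of these cDC2-like barcodes, 7 in Csf2-/- SILT and 26 in wild-type SILT were placed there from the cycling cluster. In lamina propria 7 were placed in Csf2-/- and 42 in wild type. The S shares and sums of the class thus rest on the placing and on few Csf2-/- cycling barcodes. In cDC1-like barcodes the S share was 57.0% in Csf2-/- SILT and 56.8% in wild-type SILT, and 49.8% in the Csf2-/- lamina propria and 30.2% in that of wild-type mice. Cycling macrophage-like barcodes had S shares of 57.8% in Csf2-/- SILT and 39.7% in wild-type SILT, and of 38.8% in the Csf2-/- lamina propria and 39.8% in that of wild-type mice.

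**Figure D2:**
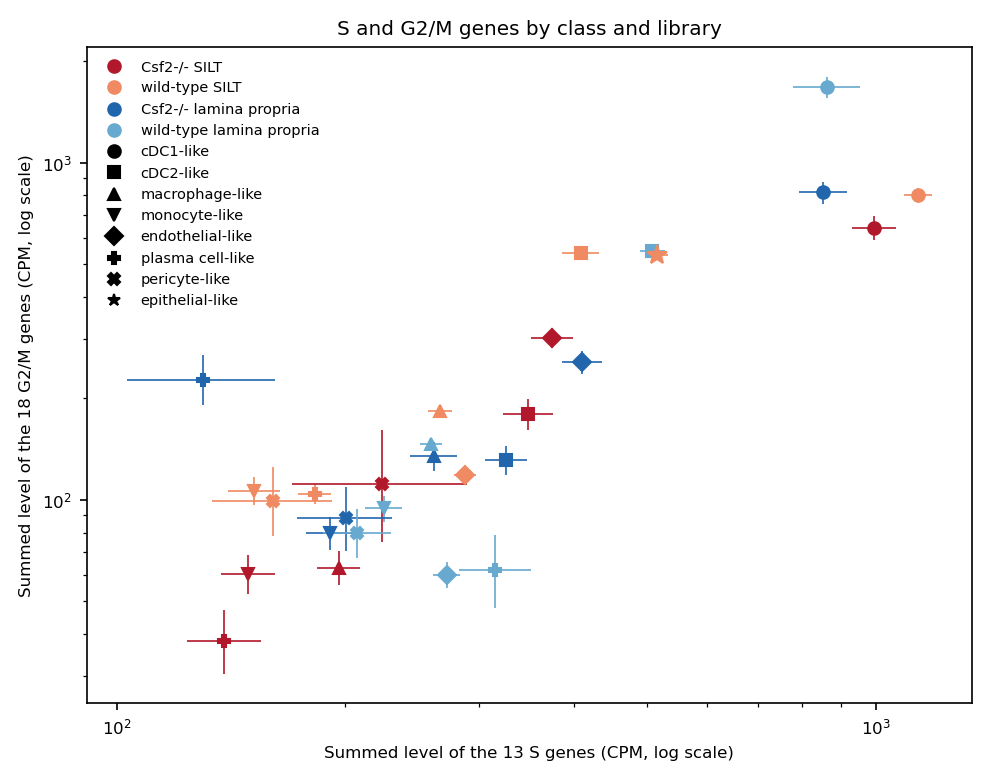
Summed level of the 18 G2/M genes (CPM) against that of the 13 S genes (CPM), both axes logarithmic, 1 point for each cell class and library, with bars for the 95% counting interval. The cycling cluster was placed on the classes. The cDC2-like points of both Csf2-/- libraries, at 131 and 179 CPM of G2/M genes, lie below those of both wild-type libraries, at 540.3 and 548 CPM.

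The sort into S-lean and G2/M-lean cycling barcodes (294 and 233 barcodes with at least 5 UMIs of the 31 genes and more from one phase) was checked on genes outside the list. Another 35 S genes summed to 1730 CPM in S-lean and 1032 CPM in G2/M-lean barcodes, and another 52 G2/M genes to 1573 CPM in S-lean and 4823 CPM in G2/M-lean barcodes. Ccne1, the cyclin of S phase entry, was at 28.0 CPM in S-lean and 7.69 CPM in G2/M-lean barcodes, and Slbp, which binds the histone mRNA stem-loop, at 161 CPM in S-lean and 95.2 CPM in G2/M-lean barcodes. Core histones of the Hist1h2, Hist1h3 and Hist1h4 genes went the other way, with 1986 CPM in S-lean and 4027 CPM in G2/M-lean barcodes. So did Hist1h1e (236 CPM in S-lean and 462 CPM in G2/M-lean barcodes) and Hist1h1c (88.7 CPM in S-lean and 180.1 CPM in G2/M-lean barcodes), while Hist1h1a differed little (52.3 CPM in S-lean and 59.8 CPM in G2/M-lean barcodes). The level was higher in G2/M-lean than in S-lean barcodes of each library for core histones, Hist1h1b, Hist1h1c, Hist1h1d and Hist1h1e. Counting error covered the difference for Hist1h1b in Csf2-/- SILT (S-lean over G2/M-lean ratio 0.84, 0.63 to 1.12) and Csf2-/- lamina propria (0.79, 0.61 to 1.04), and for Hist1h1d in Csf2-/- SILT (0.77, from 18 and 8 UMIs, with an interval that included 1). Both groups pooled all cell classes and were not matched for class or depth. Top2a, a gene of the call, was at 266 CPM in S-lean and 646 CPM in G2/M-lean barcodes. The part of class, depth or strength of the call in the histone difference was not tested.

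Levels of the genes were next compared between genotypes over all barcodes of a library, where fewer cycling cells and less RNA per cycling cell cannot be told apart. A gene was called higher or lower at a ratio of at least 1.5-fold either way with at least 30 UMIs over both libraries, and all 41 genes passed that floor. In Csf2-/- SILT over wild-type SILT, 0 of the 41 were called higher and 24 lower. The background over 15592 features was 11.4% called higher and 17.3% called lower. The median log2 ratio was -0.81 over the 41 genes and -0.01 over all features. In Csf2-/- lamina propria over wild-type lamina propria, 2 genes were called higher and 8 lower, with a background of 6.45% higher and 10.7% lower over 14769 features. The medians there were -0.06 over the 41 genes and -0.05 over all features. The median of the list was thus near that of all features, although 8 of the 41 genes were called lower.

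The genes of G2 and mitosis made up most of the genes called in SILT. Of these 18 genes, 0 were called higher and 14 lower, against 11.4% and 17.3% of all features. Plk1, the kinase that starts mitosis, was at 1.39 CPM in Csf2-/- SILT and 4.45 CPM in wild-type SILT (ratio 0.31, 0.21 to 0.46). Ube2c, the ubiquitin carrier of the anaphase complex, was at 10.4 CPM in Csf2-/- SILT and 26.8 CPM in wild-type SILT (0.39, 0.34 to 0.45). Nusap1, which bundles spindle microtubules, was at 8.05 CPM in Csf2-/- SILT and 19.9 CPM in wild-type SILT (0.40, 0.34 to 0.47). Ccnb2 was at 4.65 CPM in Csf2-/- SILT and 10.8 CPM in wild-type SILT (0.43), and Bub1 at 1.73 CPM in Csf2-/- SILT and 4.57 CPM in wild-type SILT (0.38). All of these were lower in Csf2-/- SILT by over 1.5-fold. The 4 G2/M genes that were not called were Cdc20 (ratio 0.70), Bub1b (0.70), Aurkb (0.73) and Cenpa (1.14).

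In lamina propria 0 of the 18 G2/M genes were called higher and 2 lower, against 6.45% and 10.7% of all features, so the share called lower was near that of all features. The 2 genes were Cenpe, a kinetochore motor, at 5.88 CPM in Csf2-/- lamina propria and 13.9 CPM in wild-type lamina propria (ratio 0.42, 0.34 to 0.52), and Bub1, at 2.17 CPM in Csf2-/- lamina propria and 3.39 CPM in wild-type lamina propria (0.64, 0.44 to 0.91). Ube2c was at 13.6 CPM in Csf2-/- lamina propria and 10.6 CPM in wild-type lamina propria (1.28, 1.10 to 1.49), the other way round from SILT. Plk1 was at 2.49 CPM in Csf2-/- lamina propria and 2.59 CPM in wild-type lamina propria, which counting error covers (0.96, 0.67 to 1.35).

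Top2a, the topoisomerase that untangles replicated DNA, and Mki67, which coats mitotic chromosomes, were lower in Csf2-/- cells of both tissues. Top2a was at 24.4 CPM in Csf2-/- SILT and 53.7 CPM in wild-type SILT (0.45, 0.41 to 0.50). In the lamina propria Top2a was at 28.1 CPM in Csf2-/- and 46.8 CPM in wild-type cells (0.60, 0.54 to 0.66). Mki67 was at 27.2 CPM in Csf2-/- SILT and 50.1 CPM in wild-type SILT (0.54), and at 34.8 CPM in Csf2-/- lamina propria and 62.4 CPM in wild-type lamina propria (0.56).

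Of the 13 S genes, 0 were called higher and 3 lower in Csf2-/- SILT, against 11.4% and 17.3% of all features. Tyms, which makes thymidylate, was at 13.6 CPM in Csf2-/- SILT and 25.7 CPM in wild-type SILT (0.53), Pclaf at 26.4 CPM in Csf2-/- SILT and 45.2 CPM in wild-type SILT (0.58), and Mcm4 at 16.3 CPM in Csf2-/- SILT and 26.2 CPM in wild-type SILT (0.62). The other 10 had ratios of 0.73 (Rrm1) to 1.25 (Mcm5). Pcna was at 79.8 CPM in Csf2-/- SILT and 67.8 CPM in wild-type SILT, and at 99.0 CPM in Csf2-/- lamina propria and 88.0 CPM in wild-type lamina propria, slightly higher in Csf2-/- cells of both tissues. In lamina propria 2 S genes were called higher and 0 lower, against 6.45% and 10.7%. They were Tk1, thymidine kinase, at 7.25 CPM in Csf2-/- and 4.57 CPM in wild-type lamina propria (1.59), and Rrm2, at 6.93 CPM in Csf2-/- and 4.51 CPM in wild-type lamina propria (1.54).

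Among the 3 genes of chromatin and tubulin, Stmn1, which takes microtubules apart, was at 65.5 CPM in Csf2-/- SILT and 133 CPM in wild-type SILT (0.49). It was at 63.5 CPM in Csf2-/- lamina propria and 53.1 CPM in wild-type lamina propria (1.20). Hmgb2, a DNA-bending protein, was at 234.0 CPM in Csf2-/- SILT and 253 CPM in wild-type SILT, and at 233.8 CPM in Csf2-/- lamina propria and 164 CPM in wild-type lamina propria (0.92 and 1.42). H2afz was at 749.7 CPM in Csf2-/- SILT and 681 CPM in wild-type SILT, and at 713 CPM in Csf2-/- lamina propria and 479 CPM in wild-type lamina propria (1.10 and 1.49). Neither Hmgb2 nor H2afz passed 1.5-fold in either tissue.

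**Figure D3:**
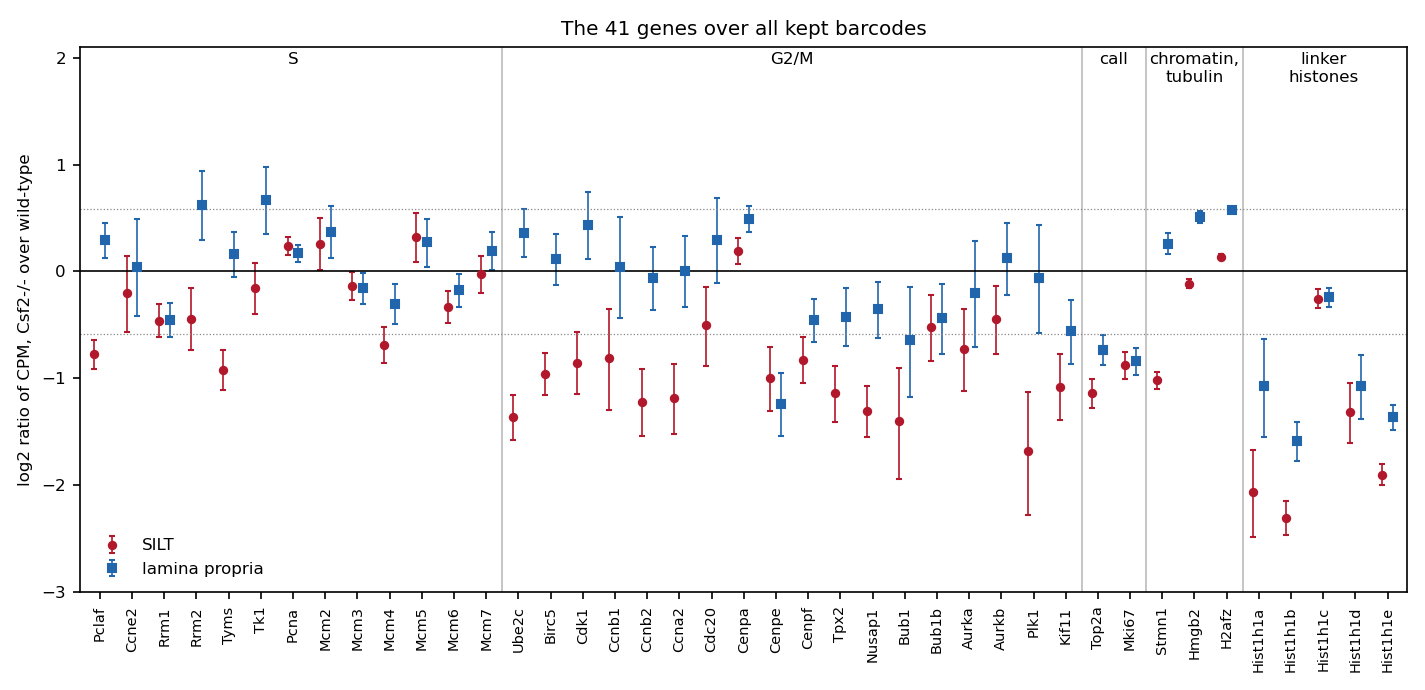
Ratio of Csf2-/- over wild-type level for each of the 41 genes over all barcodes (log2 axis), in SILT (circles) and in lamina propria (squares), ordered by role, with bars for the 95% counting interval and dotted lines at 1.5-fold either way. Of the 18 G2/M genes, 14 in SILT and 2 in lamina propria lie below the lower dotted line, and 4 of the 5 linker histones do so in both tissues. Of all features, 17.3% in SILT and 10.7% in lamina propria were called lower.

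The epithelial-like barcodes, found almost solely in wild-type SILT, moved with these counts. With the epithelial-like class and cluster 21, whose cycling barcodes were in wild-type SILT (22 of 140), left out, 0 genes were called higher and 17 lower in Csf2-/- SILT, 10 of the 17 being G2/M genes and 1 an S gene, with a background of 9.86% called higher and 12.9% called lower and a median log2 ratio of -0.45. Hmgb2 then turned from lower to higher in Csf2-/- SILT, with a ratio of 1.07 (1.04 to 1.11). In lamina propria the same step gave 2 higher and 9 lower, against 6.51% and 10.5%. This alternative was chosen after the data had been seen. Without cycling barcodes, 1 was called higher and 15 lower of the 40 genes past the floor, against a background of 9.90% and 15.4%. The same step in lamina propria left 9 called higher and 7 lower of 38, against 6.66% and 11.2%. Because the call used Top2a and Mki67, this step removes most UMIs of both and of many G2/M genes by construction. No conclusion is drawn from these counts.

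Within classes, summed by cluster without the cycling cluster, the direction differed between immune and endothelial cells. In macrophage-like barcodes of Csf2-/- SILT over wild-type SILT, 0 were called higher and 11 lower of the 26 genes past the floor, against a background of 8.85% called higher and 6.0% called lower. In lamina propria the macrophage-like counts were 3 higher and 6 lower of 28, against 6.92% and 12.0%. Mki67 was at 5.41 CPM in macrophage-like barcodes of Csf2-/- SILT and 9.73 CPM in those of wild-type SILT (0.56, 0.34 to 0.87), and at 7.49 CPM in those of Csf2-/- lamina propria and 13.7 CPM in those of wild-type lamina propria (0.54, 0.33 to 0.85). Macrophage-like Pcna did not differ beyond counting error, with 77.7 CPM in Csf2-/- SILT and 72.1 CPM in wild-type SILT (1.08, 0.95 to 1.22).

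In cDC2-like barcodes, 0 were called higher and 16 lower of 23 in SILT (background 12.2% and 8.12%), and 3 higher and 6 lower of 21 in lamina propria (6.04% and 11.3%). Mki67 of cDC2-like barcodes was at 7.89 CPM in Csf2-/- SILT and 18.2 CPM in wild-type SILT (0.43, 0.22 to 0.80), and at 8.69 CPM in Csf2-/- lamina propria and 23.6 CPM in wild-type lamina propria (0.37, 0.23 to 0.57). Stmn1 of cDC2-like barcodes was at 16.3 CPM in Csf2-/- SILT and 39.1 CPM in wild-type SILT (0.42), against 22.6 CPM in Csf2-/- lamina propria and 10.8 CPM in wild-type lamina propria (2.08). Mki67 was thus lower in Csf2-/- cDC2-like barcodes of both tissues, and Stmn1 in SILT alone. Monocyte-like counts were 2 higher and 4 lower of 18 in SILT (12.3% and 5.92%) and 1 higher and 7 lower of 20 in lamina propria (4.95% and 8.79%).

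Lymphoid classes were compared in SILT. Plasma cell-like barcodes had 1 gene called higher and 23 lower of 36 (background 8.17% and 16.2%). Ube2c was at 2.19 CPM in plasma cell-like barcodes of Csf2-/- SILT and 14.8 CPM in those of wild-type SILT (0.15, 0.05 to 0.35). B cell-like barcodes had 2 called higher and 8 lower of 17 (15.3% and 15.6%). Top2a of B cell-like barcodes had 3 UMIs in Csf2-/- SILT and 60 in wild-type SILT (7.53 and 25.6 CPM). The Csf2-/- SILT sums of both lymphoid classes were small, from 69 and 102 barcodes. Most plasma cell-like barcodes also held C1q UMIs, as given above.

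Endothelial-like barcodes went the opposite way, with 28 called higher and 4 lower of 41 in SILT (background 12.1% and 6.73%), 17 of the 18 G2/M genes being among those called higher. In lamina propria 23 were called higher and 3 lower of 34 (7.48% and 7.20%), with all 12 G2/M genes past the floor called higher. Mki67 was at 79.9 CPM in endothelial-like barcodes of Csf2-/- SILT and 21.7 CPM in those of wild-type SILT (3.68, 3.05 to 4.44). In lamina propria it was at 30.1 CPM in Csf2-/- and 17.96 CPM in wild-type endothelial-like barcodes (1.68, 1.25 to 2.23). These sums rested on few barcodes. Cycling barcodes, 7, 22, 5 and 6 of them in the library order used above, held 87.2% of the endothelial-like G2/M UMIs in Csf2-/- SILT and 62.9% in wild-type SILT, and 83.6% in the Csf2-/- lamina propria and 46.1% in that of wild-type mice. Because the call used Top2a and Mki67, leaving these barcodes out lowers G2/M levels by construction. Without them the 18 G2/M genes were at 40.8 CPM in Csf2-/- SILT and 43.5 CPM in wild-type SILT, and at 40.9 CPM in Csf2-/- lamina propria and 32.6 CPM in wild-type lamina propria.

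The linker histones, which bind the DNA between nucleosomes, differed most between genotypes of all the roles. Hist1h1e was at 42.4 CPM in Csf2-/- SILT and 159 CPM in wild-type SILT (0.27, 0.25 to 0.29), and at 38.0 CPM in Csf2-/- lamina propria and 98.0 CPM in wild-type lamina propria (0.39, 0.36 to 0.42). Hist1h1b was at 16.3 CPM in Csf2-/- SILT and 80.5 CPM in wild-type SILT (0.20, 0.18 to 0.23), and at 14.8 CPM in Csf2-/- lamina propria and 44.5 CPM in wild-type lamina propria (0.33, 0.29 to 0.38). Both Csf2-/- libraries were close to each other and below both wild-type libraries. Hist1h1a was at 2.68 CPM in Csf2-/- SILT and 11.3 CPM in wild-type SILT, and at 2.59 CPM in Csf2-/- lamina propria and 5.47 CPM in wild-type lamina propria (0.24 and 0.47). Hist1h1d was at 5.90 CPM in Csf2-/- SILT and 14.7 CPM in wild-type SILT, and at 5.98 CPM in Csf2-/- lamina propria and 12.6 CPM in wild-type lamina propria (0.40 and 0.47). Hist1h1c, which other work knows as a linker histone also made outside S phase, was the one not called, at 62.4 CPM in Csf2-/- SILT and 74.6 CPM in wild-type SILT, and at 77.8 CPM in Csf2-/- lamina propria and 92.1 CPM in wild-type lamina propria (0.84 in both tissues).

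Unlike the G2/M genes, Hist1h1e was lower in Csf2-/- cells of every class compared. In macrophage-like barcodes Hist1h1e was at 23.1 CPM in Csf2-/- SILT and 59.3 CPM in wild-type SILT (0.39), and at 15.3 CPM in Csf2-/- lamina propria and 47.0 CPM in wild-type lamina propria (0.33). In endothelial-like barcodes, where the G2/M genes were higher in Csf2-/-, Hist1h1e was at 51.9 CPM in Csf2-/- SILT and 160 CPM in wild-type SILT (0.32), and at 26.1 CPM in Csf2-/- lamina propria and 87.5 CPM in wild-type lamina propria (0.30). Pericyte-like barcodes, none of which was cycling, had Hist1h1e at 23.1 CPM in Csf2-/- SILT and 206 CPM in wild-type SILT, from 6 and 155 UMIs, and at 29.2 CPM in Csf2-/- lamina propria and 152 CPM in wild-type lamina propria, from 28 and 270 UMIs. The other ratios were 0.34 and 0.43 in monocyte-like barcodes of SILT and lamina propria, 0.35 and 0.40 in cDC2-like ones, 0.25 in B cell-like and 0.29 in plasma cell-like barcodes of SILT. Outside the cycling call the ratios of Hist1h1e were 0.31 in SILT and 0.40 in lamina propria. Hist1h1b was the exception to the direction in endothelial-like barcodes of SILT, with 44.0 CPM in Csf2-/- and 17.9 CPM in wild-type cells (2.47). Hist1h1c of macrophage-like barcodes was at 104 CPM in Csf2-/- SILT and 72.1 CPM in wild-type SILT (1.45), and at 118 CPM in Csf2-/- lamina propria and 99.1 CPM in wild-type lamina propria (1.19).

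The linker difference was also seen within the cycling cluster. Its Hist1h1b was at 300.8 CPM in Csf2-/- SILT (248 to 361) and 1613 CPM in wild-type SILT (1551 to 1678), and at 389.9 CPM in Csf2-/- lamina propria and 1107 CPM in wild-type lamina propria. Its Hist1h1e was at 145 CPM in Csf2-/- SILT and 915 CPM in wild-type SILT, and at 237 CPM in Csf2-/- lamina propria and 592 CPM in wild-type lamina propria. Top2a in the same barcodes was at 615 CPM in Csf2-/- SILT and 939 CPM in wild-type SILT, and at 704 CPM in Csf2-/- lamina propria and 1244 CPM in wild-type lamina propria. Hist1h1e and Hist1h1b of this cluster differed between genotypes by more than Top2a did in both tissues. The cluster held only 17 Csf2-/- barcodes against 85 wild-type ones from SILT, and 22 against 64 from the lamina propria. Placed as cDC2-like were 7 of 17 against 26 of 85, and 7 of 22 against 42 of 64. Placed as cDC1-like were 6 of 17 against 23 of 85, and 8 of 22 against 5 of 64. The part of this makeup in the linker difference was not tested.

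**Figure D4:**
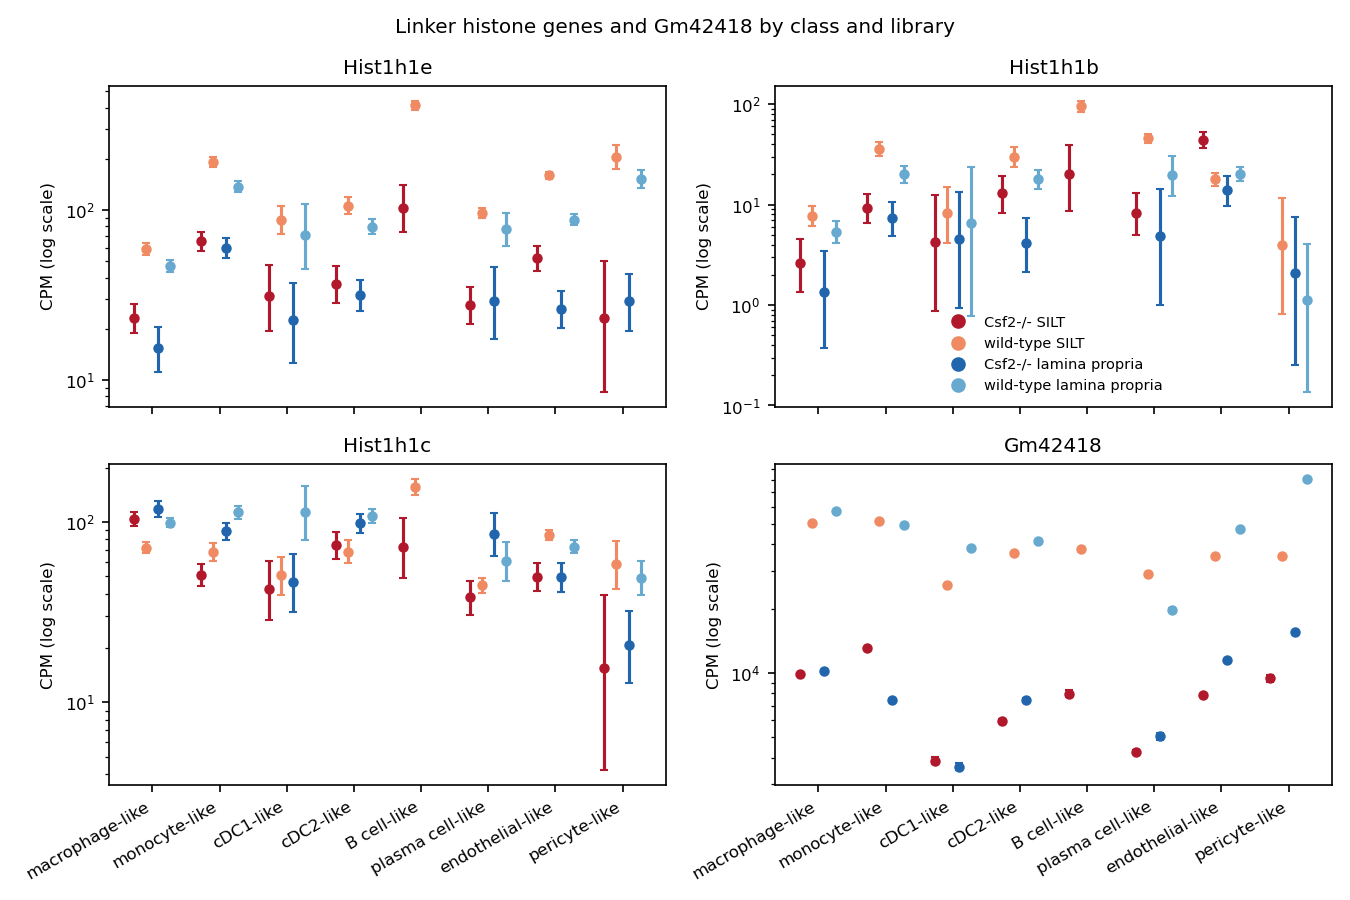
Level (CPM, log axis) of Hist1h1e, Hist1h1b, Hist1h1c and Gm42418 by cell class and library, with bars for the 95% counting interval and with values of 0 and groups under 20 barcodes left out. Hist1h1e of both Csf2-/- libraries, at 15.3 to 103 CPM in the classes plotted, lies below the wild-type library of the same tissue in each class.

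Other features moved with the linker histones. Gm42418, a feature that overlaps ribosomal RNA repeats, was at 8402 CPM in Csf2-/- SILT and 34329 CPM in wild-type SILT, and at 8377 CPM in Csf2-/- lamina propria and 47345 CPM in wild-type lamina propria (0.24 and 0.18). In the cycling cluster Gm42418 was at 6323 CPM in Csf2-/- SILT and 31786 CPM in wild-type SILT, and at 4639 CPM in Csf2-/- lamina propria and 42096 CPM in wild-type lamina propria. AY036118, of the same kind, had ratios of 0.37 and 0.54 in SILT and lamina propria. Lars2 had ratios of 0.89 and 0.28, and Gm26917 of 1.56 and 1.23, so the features of this kind did not all move one way. The part of these features in the histone result was not tested. With Gm42418 and AY036118 left out of the totals, Hist1h1e had ratios of 0.26 in SILT and 0.37 in lamina propria.

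The remaining histones were counted as a family. Of 67 Hist genes, 64 had a UMI, 125756 UMIs in all, of which the 5 linker histones held 32.1%. The 3 most abundant were Hist1h2ap, Hist1h1e and Hist1h1c. Hist1h2ap, a core histone, was at 110.4 CPM in Csf2-/- SILT and 158 CPM in wild-type SILT, and at 126 CPM in Csf2-/- lamina propria and 86.5 CPM in wild-type lamina propria, so it lay the other way round in lamina propria. Summed, the family was at 489.9 CPM in Csf2-/- SILT and 1029 CPM in wild-type SILT, and at 540.8 CPM in Csf2-/- lamina propria and 752 CPM in wild-type lamina propria. In SILT, 2 of the 56 past the floor were called higher in Csf2-/- and 40 lower, against 11.4% and 17.3% of all features. In lamina propria 0 of 52 were called higher and 26 lower, against 6.45% and 10.7%. The 8 replication-independent histone genes, whose mRNAs carry poly(A) tails, had 0 called either way in both tissues. Among them H3f3a was at 1308 CPM in Csf2-/- SILT and 1048 CPM in wild-type SILT, and at 1306 CPM in Csf2-/- lamina propria and 934 CPM in wild-type lamina propria (1.25 and 1.40). Hist genes are near-identical copies, and how their shared reads were assigned is not given in the sources used here, so single Hist values are uncertain.

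Lists of further cell cycle genes were read the same way, against 11.4% of all features called higher and 17.3% lower in SILT and 6.45% and 10.7% in lamina propria. Of 35 other S genes, 0 were called higher and 10 lower in Csf2-/- SILT, and 0 higher and 4 lower in Csf2-/- lamina propria. Prim1, a primase subunit, was at 8.49 CPM in Csf2-/- SILT and 17.3 CPM in wild-type SILT (0.49). Of 52 other G2/M genes, 0 were called higher and 30 lower in SILT, and 1 higher and 10 lower in lamina propria. Kif4, a chromosome motor, was at 1.20 CPM in Csf2-/- SILT and 5.47 CPM in wild-type SILT (0.22), and Aspm, of the spindle poles, at 3.60 CPM in Csf2-/- lamina propria and 7.96 CPM in wild-type lamina propria (0.45). Cks2, a small subunit of cyclin-dependent kinases, was the one called higher, at 30.01 CPM in Csf2-/- lamina propria and 15.99 CPM in wild-type lamina propria (1.88).

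Of 11 regulators of G1, 1 was called higher and 2 lower in SILT, near the 11.4% and 17.3% of all features, and 3 were called higher and 0 lower in lamina propria, against 6.45% and 10.7%. E2f2, an activating E2F factor, was higher in both, at 13.9 CPM in Csf2-/- SILT and 6.49 CPM in wild-type SILT (2.14, 1.84 to 2.49), and at 15.7 CPM in Csf2-/- lamina propria and 8.21 CPM in wild-type lamina propria (1.91, 1.64 to 2.22). Ccne1 was at 2.40 CPM in Csf2-/- SILT and 3.71 CPM in wild-type SILT (0.65). Myc was at 14.3 CPM in Csf2-/- lamina propria and 8.11 CPM in wild-type lamina propria (1.76). Of 13 inhibitors, 1 was called higher and 1 lower in SILT, and 2 higher and 1 lower in lamina propria, against the same shares. Btg1, an antiproliferative gene, was at 670.0 CPM in Csf2-/- SILT and 394 CPM in wild-type SILT (1.70), and at 739 CPM in Csf2-/- lamina propria and 413 CPM in wild-type lamina propria (1.79). Cdkn2b, an inhibitor of CDK4 and CDK6, was at 1.63 CPM in Csf2-/- SILT and 4.34 CPM in wild-type SILT (0.38).

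The tissues were compared within each genotype. In wild-type SILT over wild-type lamina propria, 19 of the 41 genes were called higher and 0 lower, against a background of 15.1% called higher and 27.6% called lower over 16066 features, and the medians of the log2 ratio were 0.46 over the 41 genes and -0.25 over all features. Ube2c was at 26.8 CPM in wild-type SILT and 10.6 CPM in wild-type lamina propria (2.54), Stmn1 at 133 CPM in wild-type SILT and 53.1 CPM in wild-type lamina propria (2.51) and Pclaf at 45.2 CPM in wild-type SILT and 19.1 CPM in wild-type lamina propria (2.37). Mki67 and Top2a were not called, with ratios of 0.80 and 1.15. With the epithelial-like class and cluster 21 left out, 10 were called higher and 2 lower, 2 and 1 of them G2/M genes, against 9.98% and 25.9%. In Csf2-/- SILT over Csf2-/- lamina propria, 0 were called higher and 1 lower (Plk1, 0.56), against 3.79% and 10.3% over 13812 features. The comparisons by tissue share their libraries with those by genotype.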

How the data were processed

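Single-cell 3′ libraries of colon cells selected for CD11b were measured, 1 for each of Csf2-/- SILT, wild-type SILT, Csf2-/- lamina propria and wild-type lamina propria. The deposited values are whole UMI counts per gene and barcode, not normalized. Per the submitters' processing notes Cell Ranger 2.1.1 and mm10 were used, but version 6.0.0 stands in the matrices per the file headers, a discrepancy that remains. Barcodes had been called by the authors (lowest total 500 UMIs in 3 libraries and 502 in Csf2-/- SILT). Free RNA was not subtracted, which can put UMIs of abundant genes into any barcode.

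A barcode was kept from 200 genes upward if mitochondrial UMIs did not exceed 10%. Scrublet in scanpy 1.11.5 called doublets (10, 136, 7 and 52 barcodes in the order above), kept in the main values and left out as an alternative. Clusters were made with leidenalg 0.10.2 at resolution 1 without 190 cell cycle genes, and named from marker lists. UMIs were summed per library and class and given as CPM. Intervals were exact binomial, Poisson and conditional binomial ones from scipy 1.17.1 at the 95% level, and no p-value was computed. The members and lists were chosen with earlier results of these data known. From each list of other genes, those named were among the 3 highest and 3 lowest ratios. Alternatives were other call thresholds, thinning, filters and scalings (edgeR 4.0.16 for TMM factors).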

Additional observations from a re-analysis of the deposited data

Results flagged for a closer look

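For 6 genes the difference between genotypes ran in opposite directions in the 2 tissues, each with a counting interval that left out a ratio of 1. The difference between the tissues was not tested, since each group had 1 library. On the log2 scale, the Csf2-/- over wild-type ratio in SILT minus that in lamina propria was -1.73 for Ube2c (ratios 0.39 in SILT and 1.28 in lamina propria), -1.28 for Cdk1 (0.55 and 1.35) and -1.28 for Stmn1 (0.49 and 1.20). It was -1.07 for Pclaf (0.58 and 1.22), -1.06 for Rrm2 (0.74 and 1.54) and -0.62 for Hmgb2 (0.92 and 1.42). All 6 were lower in Csf2-/- SILT and higher in Csf2-/- lamina propria. Epithelial-like barcodes, of which 58 of 104 were cycling in wild-type SILT, enter the SILT ratios. Without them and cluster 21, the SILT ratios were 0.53 for Ube2c, 0.75 for Cdk1, 0.66 for Stmn1, 0.70 for Pclaf and 0.81 for Rrm2 (0.66 to 0.99), nearer to 1 than before and still with intervals below it. Hmgb2 turned, with a SILT ratio of 1.07 (1.04 to 1.11) beside 1.42 in lamina propria, so it no longer ran in opposite directions. Cdk1, the kinase that drives mitosis, was at 5.75 CPM in Csf2-/- SILT and 10.4 CPM in wild-type SILT, and at 6.93 CPM in Csf2-/- lamina propria and 5.15 CPM in wild-type lamina propria.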

How the results depend on the processing

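No paired analysis was possible because each group had 1 library and the labels carry no replicate numbers. Values below are in the order Csf2-/- SILT, wild-type SILT, Csf2-/- lamina propria, wild-type lamina propria. The cycling share moved with the threshold and depth. It was 8.07%, 11.3%, 6.59% and 10.2% at 1 or more UMIs, 1.85%, 3.38%, 2.18% and 2.96% at 3 or more, 1.06%, 2.02%, 1.12% and 1.68% thinned to 2000 UMIs, and 29.7%, 28.1%, 37.9% and 42.0% when called from at least 3 UMIs of the 31 S and G2/M genes, where Csf2-/- SILT no longer lay below wild-type SILT. Over the myeloid classes it was 1.90%, 5.02%, 3.34% and 5.67% at 3 or more UMIs and 0.998%, 3.47%, 1.53% and 3.26% thinned. The S share of phase UMIs was 55.6%, 48.0%, 51.0% and 45.3% at 1 or more UMIs, 49.4%, 44.7%, 47.2% and 39.6% at 3 or more, and 48.1%, 39.5%, 40.3% and 36.4% thinned. With at most 5% mitochondrial UMIs, wild-type lamina propria had a cycling share of 5.43% and an S share of 39.6%. The macrophage-like share of wild-type SILT was 2.58% by cluster and 4.19% with the cycling cluster placed. Counts of genes also moved under 3 alternatives added after the data had been seen. Leaving out cycling barcodes lowers Top2a, Mki67 and many G2/M genes by construction. Without those barcodes, 1 gene was called higher and 15 lower in Csf2-/- SILT over wild-type SILT, against 9.90% and 15.4% of all features. In Csf2-/- lamina propria over wild-type lamina propria 9 were called higher, against 6.66%, and the number called lower is given above. Without Gm42418 and AY036118 in the totals, 1 was called higher in that lamina propria comparison, and the share over all features was not computed. Without epithelial-like barcodes and cluster 21, 10 were called higher and 2 lower in wild-type SILT over wild-type lamina propria, against 9.98% and 25.9% of all features. The cause of these shifts was not tested. The Hist1h1e ratio stayed within 0.26 to 0.28 in SILT and within 0.37 to 0.40 in lamina propria over 12 alternative values. The median log2 ratio of all features in wild-type SILT over wild-type lamina propria was -0.25, and -0.04 with TMM factors, so ratios there shift by that much. With 1 library per group, depth limits only counting error, and differences between mice or preparations cannot be told apart from genotype or tissue.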

Other observations

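Migratory DC-like barcodes, which carry antigen to lymph nodes, were cycling in 3 of 24 in Csf2-/- SILT and 21 of 109 in wild-type SILT (19.3%), with 1 of 3 in the Csf2-/- lamina propria and 2 of 14 in the wild-type one. Of all these migratory DC-like barcodes, 1, 10, 1 and 2 were placed from the cycling cluster in the same library order. The class by cluster was deep, with a median of 12421.5 UMIs, so these shares rest on the placing and on depth. The 3 dendritic classes together were cycling in 31 of 285 barcodes in Csf2-/- SILT (10.9%) and 101 of 558 in wild-type SILT (18.1%), and in 35 of 330 in Csf2-/- lamina propria (10.6%) and 85 of 410 in wild-type lamina propria (20.7%). Monocyte- and macrophage-like barcodes together had shares of 1.63% in Csf2-/- SILT and 3.34% in wild-type SILT, and of 2.27% in the Csf2-/- lamina propria and 5.23% in that of wild-type mice. Thinned to 2000 UMIs these were 0.110% in Csf2-/- SILT, from 1 of 909 barcodes, and 1.64% in wild-type SILT, and 0.428% in the Csf2-/- lamina propria and 1.05% in that of wild-type mice, so the order of the wild-type tissues turned with depth. In cluster 3, a shallow and unnamed cluster, 1 of 139 barcodes was cycling in Csf2-/- SILT and 26 of 1011 in wild-type SILT. Cycling epithelial-like barcodes of wild-type SILT had an S share of 47.6% of their phase UMIs, and in 36 of the 58 most phase UMIs were of S genes.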
